A study of Homo sapiens with 6 samples.

Results

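The genes described here are the 58 listed genes of the DNA replication machinery, out of 62700 gene rows in the table, compared between A673 libraries labelled EWS-FLI1 knockout and libraries labelled EWS-FLI1 parental control. They were taken by name for their role, in a list drawn up with earlier results of these data known, and each symbol stood on a single row. A673 is a cell line of Ewing sarcoma, a bone and soft tissue tumour in which part of EWSR1, a protein that binds RNA, is joined to the transcription factor FLI1. The 3 knockout libraries came from A673 cells depleted of the fusion, and the 3 parental libraries from A673 cells with the wildtype fusion, all grown in DMEM with fetal bovine serum and sequenced as poly(A)-enriched RNA. The labels do not say how the fusion was removed, how long before harvest, whether knockout cells were 1 clone or a pool, or whether replicates were separate cultures. A difference between clones and the loss of the fusion therefore cannot be told apart, and the p-values rest on a spread between libraries that may be only technical.

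DNA replication starts at origins that are bound by the origin recognition complex. In G1 phase the licensing factors CDC6 and CDT1 load a ring of MCM2 to MCM7 there, and in S phase the kinase CDC7 with its partner DBF4, together with CDC45 and the GINS complex, turns that ring into the active helicase. Primase and the polymerases alpha, delta and epsilon then copy the strands, held by the PCNA clamp, while other enzymes join Okazaki fragments, supply deoxynucleotides and rebuild chromatin. Most of these genes are read in late G1 and S phase under the control of E2F transcription factors, so their level in a culture also follows how many of its cells are dividing.

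Because many of these genes are known for this shared control, the letters before their start sites are shown first. RefSeq (GRCh38.p14) gave promoter windows, 250 bases before to 50 after the start, for 51 of the 58 genes, and none for MCM4, MCM5, GINS4, POLD3, RPA2, RPA3 and DNA2. The search covered both strands for 4 words of the E2F site (TTTCGCGC, TTTGGCGC, TTTCCCGC and TTTGCCGC), for the CCAAT box (CCAAT), for the cell-cycle CHR element (TTTGAA or TTCGAA), for 1 form of the ETS site (CCGGAAGT), the site class that FLI1 binds, and for a run of 4 GGAA units. Below are the 150 bases before the start, 5′ to 3′ along the gene, with each E2F, CCAAT, CHR or ETS match that lies wholly inside them in capitals, on whichever strand it reads. MCM6 (chr2:135876444-135876593 on the minus strand) and MCM7 (chr7:100101398-100101547 on the minus strand) are shown as helicase subunits with E2F words and CCAAT boxes. CDT1 (chr16:88803639-88803788 on the plus strand) and TYMS (chr18:657503-657652 on the plus strand) hold an E2F word and no CCAAT box, and PCNA (chr20:5126623-5126772 on the minus strand) holds both motifs. CDC45 (chr22:19479770-19479919 on the plus strand) and PRIM1 (chr12:56752324-56752473 on the minus strand), the lowest log2 fold changes of their groups, hold CCAAT boxes and none of the E2F words.
MCM6: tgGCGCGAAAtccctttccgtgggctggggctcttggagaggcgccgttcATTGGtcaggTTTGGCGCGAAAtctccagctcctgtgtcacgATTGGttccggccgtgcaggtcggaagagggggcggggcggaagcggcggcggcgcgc
MCM7: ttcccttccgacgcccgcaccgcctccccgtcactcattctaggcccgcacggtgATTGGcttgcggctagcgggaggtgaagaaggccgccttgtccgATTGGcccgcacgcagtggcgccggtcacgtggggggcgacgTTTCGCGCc
CDT1: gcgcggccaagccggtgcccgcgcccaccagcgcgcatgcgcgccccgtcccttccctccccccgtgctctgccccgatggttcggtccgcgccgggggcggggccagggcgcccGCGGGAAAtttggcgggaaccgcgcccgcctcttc
TYMS: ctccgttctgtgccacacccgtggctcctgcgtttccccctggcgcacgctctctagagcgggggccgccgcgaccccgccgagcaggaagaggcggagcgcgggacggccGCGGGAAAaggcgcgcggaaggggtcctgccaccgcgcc
PCNA: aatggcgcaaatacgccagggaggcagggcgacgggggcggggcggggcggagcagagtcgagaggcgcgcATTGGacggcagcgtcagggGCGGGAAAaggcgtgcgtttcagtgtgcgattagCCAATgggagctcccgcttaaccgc
CDC45: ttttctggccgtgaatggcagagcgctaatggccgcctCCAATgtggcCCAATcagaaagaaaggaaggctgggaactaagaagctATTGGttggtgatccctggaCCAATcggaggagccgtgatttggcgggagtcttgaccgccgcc
PRIM1: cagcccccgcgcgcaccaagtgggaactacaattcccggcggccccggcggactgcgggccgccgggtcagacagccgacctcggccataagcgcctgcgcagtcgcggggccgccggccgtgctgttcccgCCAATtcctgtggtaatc

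An E2F word stood in 22 of the 51 windows (43.1%), against 3.33% of all 27305 RefSeq windows and 4.65% of the 15218 windows of tested genes. The CCAAT box, a short word that many promoters hold, stood in 29 (56.9%), against 35.7% of all windows and 36% of those of tested genes. CHR words stood in 3 windows (5.88%), against 16.6% of all windows and 12.6% of those of tested genes. The ETS word stood in 3 (5.88%), those of GINS3, POLA1 and RFC4, against 4.44% of all windows and 6.89% of those of tested genes. No window held 4 GGAA units in a row, which 4 of all windows did. E2F words and CCAAT boxes stood together in 13 windows, and 13 windows held neither. In MCM6 E2F words on opposite strands overlap each other, and each window was counted once. A match is a description of the letters and not a measured site, and a missing match says only that these letters are not in this window.

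**Figure D1:**
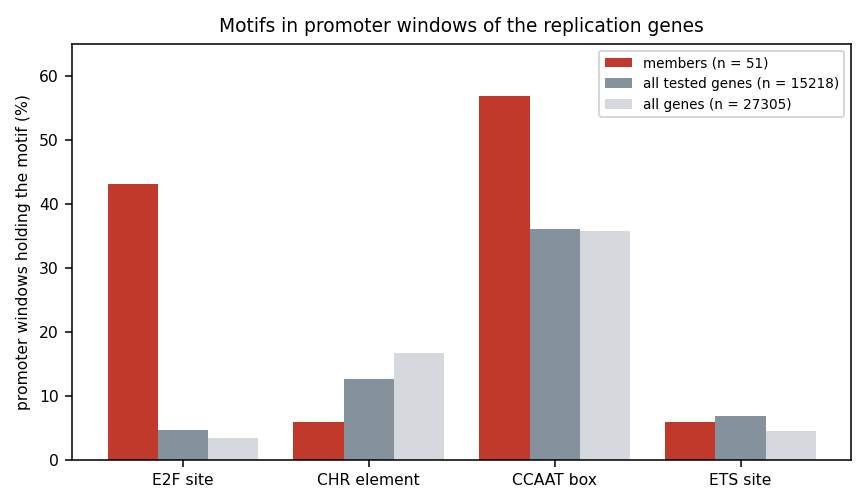
Share of promoter windows (%) that hold each motif, for the 51 replication genes with a window (red), the 15218 tested genes with a window (dark grey) and all 27305 windows (light grey). E2F words stood in 43.1% of the replication gene windows, against 4.65% and 3.33%; the run of 4 GGAA units is not drawn.

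Totals were 301605666 to 310465330 estimated counts in knockout and 324069161 to 342624492 in parental libraries, and all 58 genes passed the filter on low counts. A level is given in CPM, the count relative to the library size after TMM scaling, and levels are compared between libraries, never between genes, since gene length was not taken into account. EWSR1 held 241 to 252 CPM in the knockout libraries, against 288 to 300 CPM in parental ones, and FLI1 held 50.8 to 54.8 CPM, against 39.6 to 41.9 CPM. Gene counts mix the fusion with the normal transcripts, so these values do not check the knockout. All 10 Ewing sarcoma markers were lower in the knockout, with a summed level of 278 to 288 CPM, against 1766 to 1814 CPM in the parental libraries, LIPI at -6.77 and PRKCB at -6.83 having the lowest log2 fold changes. All 8 fibroblast markers were higher, at a summed 55447 to 57124 CPM, against 414 to 439 CPM, LUM at 8.03 and COL1A2 at 7.96 having the highest log2 fold changes. None was at 0 in any library, and their part in the results below was not tested. Haematopoietic markers, 2 of 5 tested and both higher, summed to at most 2.10 CPM in any library. Epithelial markers, 3 of 5 tested and 2 lower, summed to at most 0.817 CPM, with KRT20 at 0 in all 3 knockout libraries. Endothelial markers, of which 2 of 5 were higher and 1 lower, summed to 8.64 to 9.35 CPM in knockout libraries, where PECAM1 averaged 8.22 CPM, and to 0.820 to 0.909 CPM in parental ones, where it averaged 0.151 CPM. These marker counts are to be read against 37.5% lower and 36.3% higher among all tested genes.

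Of the 58 replication genes 52 were lower in the knockout, 3 were higher (PRIM2, RFC1 and TK1) and 3 did not pass (ORC3, GINS1 and RRM1), by edgeR's quasi-likelihood test at an adjusted p under 0.05 over all 28485 tested genes. The change was broad in these libraries: 37.5% of tested genes were called lower and 36.3% higher, so the 89.7% lower among the replication genes is to be read against 37.5%. Their median log2 fold change, knockout over parental, was -0.79 with quartiles of -1.18 and -0.50, beside a median of -0.06 over all tested genes with quartiles of -0.80 and 0.83. The 58 genes together held 4002, 4040 and 3844 CPM in the knockout libraries, against 7181, 7049 and 7006 CPM in the parental ones. Knockout and parental libraries did not overlap in 55 of the 58 genes, where 76.7% of tested genes did not overlap. Most falls were moderate: PRIM1 kept 22.1% of its parental level, LIG1, the next lowest, kept 29.5%, and the others kept more. In bulk RNA, fewer cells in S phase and less of these RNAs per cell cannot be told apart.

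Library scaling touches the size of every value. With total counts only, the median of all tested genes shifted by a log2 value of -0.42 and that of the replication genes was -1.22. With upper quartile factors the shift was -0.20 and the median -1.0. Of all genes, 10328 were called higher and 10687 lower with TMM, against 7370 and 14949 with total counts only. The 52 lower genes were lower, and PRIM2 was higher, under each of the 16 alternatives tried, while the other 5 changed call or direction under some. Exons shared with other genes can also touch a value: MCM2, GINS4, RNASEH2A and TIPIN share over 20% of their exon bases with rows that held at most 1.71 CPM on average, and POLA2 and TYMS with rows of higher level, given below.

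**Figure D2:**
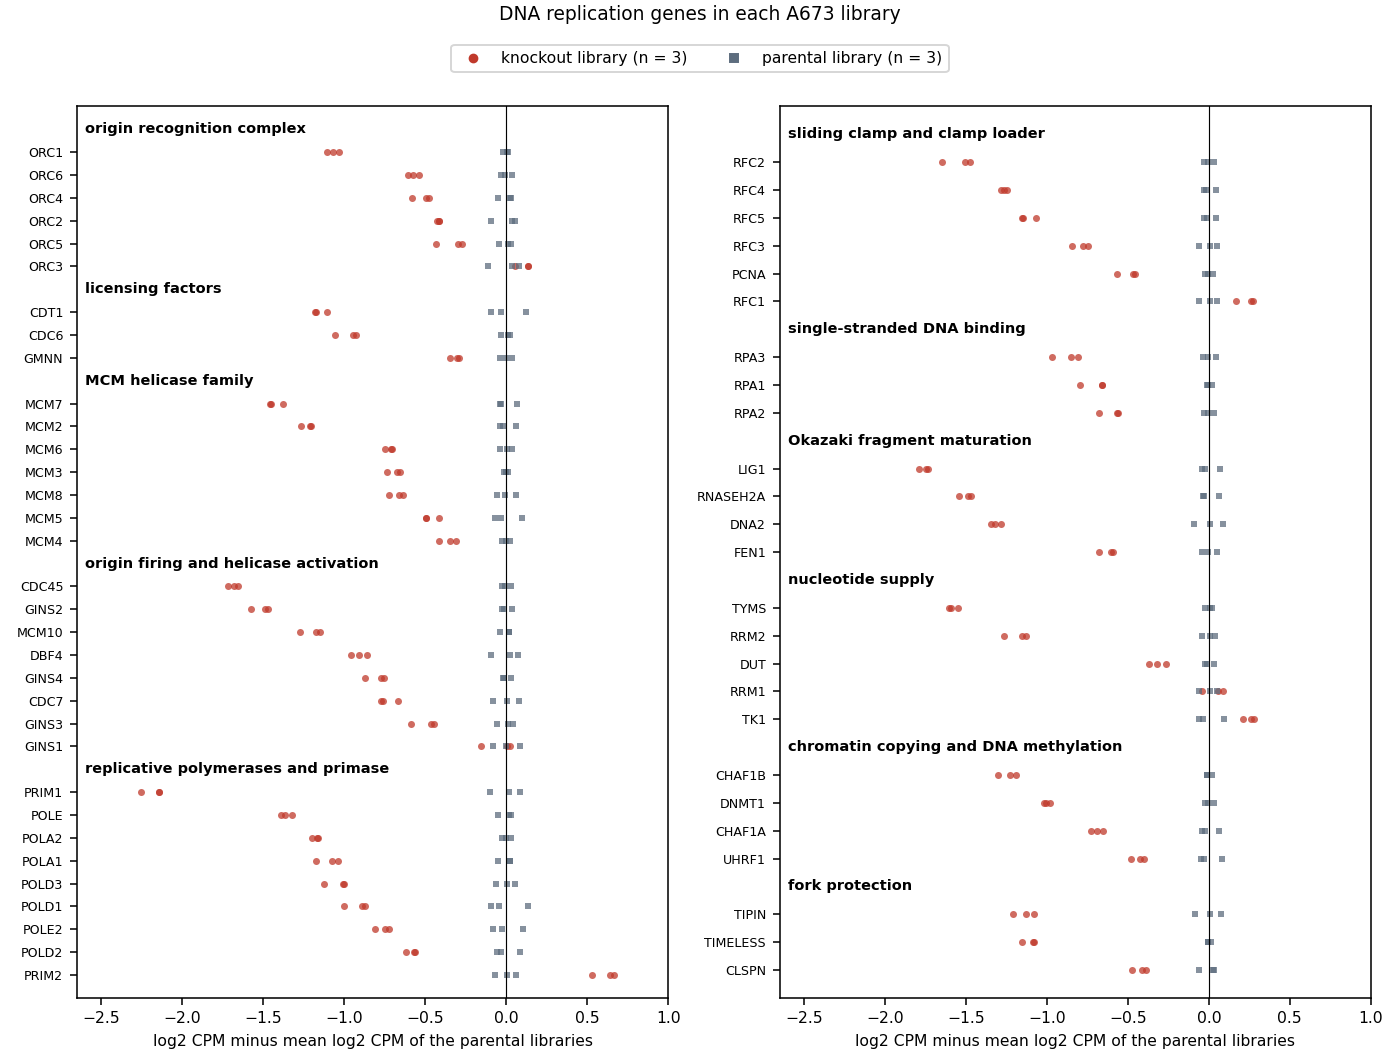
Level of each replication gene in each library, as log2 CPM minus the mean log2 CPM of the 3 parental libraries, for 3 knockout (red circles) and 3 parental libraries (grey squares), ordered by log2 fold change within each role. Knockout points lie left of parental ones for 52 genes, right of them for PRIM2, RFC1 and TK1, and overlap with them for ORC3, GINS1 and RRM1.

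In the origin recognition complex, which marks the sites where replication can begin, 5 of 6 subunits were lower and ORC3 did not pass. ORC1 (ENSG00000085840.13, chr1:52372829-52404459, GRCh38), the subunit whose level rises and falls with the cell cycle, held 19.4, 18.99 and 18.5 CPM in the knockout libraries, against 39.4, 40.1 and 39.95 CPM in the parental ones. Its knockout libraries lay together below the parental ones, at a log2 fold change of -1.07 (SE 0.050 and edgeR adjusted p = 1.18e-14). The other called subunits lay nearer to 0, ORC6 at -0.58 (SE 0.050), ORC4 at -0.52 (SE 0.051), ORC2 at -0.42 (SE 0.053) and ORC5 at -0.33 (SE 0.059). ORC3 (ENSG00000135336.16, chr6:87590067-87667453) held 39.97, 40.02 and 37.9 CPM in the knockout libraries, against 33.7, 38.5 and 37.4 CPM in the parental ones. These values overlapped, and its log2 fold change was 0.10 (SE 0.055 and edgeR adjusted p = 0.0905), with a 95% interval from -0.01 to 0.22. It was called higher with DESeq2 size factors (0.13, edgeR adjusted p = 0.0376) and lower with total counts only (-0.32, edgeR adjusted p = 0.000134).

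All 3 genes of the licensing role were lower: the licensing factors CDC6 and CDT1, and GMNN, an inhibitor of licensing. CDT1 (ENSG00000167513.9, chr16:88803213-88809258), which brings the MCM ring to the origin, held 58.8, 61.5 and 58.7 CPM in the knockout libraries, against 145, 124 and 130.0 CPM in the parental ones, at a log2 fold change of -1.16 (SE 0.055 and edgeR adjusted p = 2.04e-14). GMNN (ENSG00000112312.10, chr6:24774931-24786099), geminin, the protein that binds and blocks CDT1, held 31.8, 31.5 and 30.5 CPM in the knockout libraries, against 38.8, 39.9 and 37.9 CPM in the parental ones, at -0.31 (SE 0.049 and edgeR adjusted p = 6.13e-06). Both sets of libraries were apart, and CDT1 had the lower log2 value. Within each library the CDT1 to GMNN count ratio, which no scaling can move, stood relative to the parental mean at log2 values of -0.88, -0.81 and -0.83. CDC6, the ATPase that loads MCM together with CDT1, held 31.5 ± 1.45 CPM in knockout and 62.01 ± 1.26 CPM in parental libraries (SD, n = 3), at -0.98 (SE 0.050).

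All 7 genes of the MCM family in this group were lower, with log2 fold changes from -1.43 to -0.35. The proteins MCM2 to MCM7 form 1 ring with a copy of each, and their RNAs kept between 37.1% (MCM7) and 78.3% (MCM4) of the parental level. MCM7 (ENSG00000166508.19, chr7:100092728-100101940) held 240.1, 253 and 240.4 CPM in the knockout libraries, against 691, 639.9 and 645 CPM in parental ones, and was lower at -1.43 (SE 0.050 and edgeR adjusted p = 5.88e-17). MCM4 held 155, 151 and 144 CPM in the knockout libraries, against 189, 195 and 192 CPM in the parental ones, at -0.35 (SE 0.048 and edgeR adjusted p = 7.57e-07). Groups were apart for each. Between these ends lay MCM2 at -1.23 (SE 0.049), MCM6 at -0.72 (SE 0.047), MCM3 at -0.69 (SE 0.047) and MCM5 at -0.47 (SE 0.052). MCM8, a relative that works in repair together with MCM9, was lower at -0.67 (SE 0.050), while MCM9 itself, from the list of other replication genes, rose by 1.21 (SE 0.057). Per the annotation used here (GENCODE release 29), MCM7 shares 8.94% of its exon bases with AP4M1 on the other strand, and as strand is not stated these reads may not be told apart.

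Of the 8 genes that fire origins and activate the helicase, 7 were lower and GINS1 did not pass. CDC45 (ENSG00000093009.11, chr22:19479459-19520612), which joins MCM and GINS in the active helicase, held 22.3, 22.6 and 21.7 CPM in the knockout libraries, against 73.0, 70.9 and 70.1 CPM in the parental ones. No knockout library came near a parental one, and its log2 fold change was the lowest of the role at -1.68 (SE 0.049 and edgeR adjusted p = 2.02e-18). The 4 GINS subunits also form 1 complex, and their RNAs parted: GINS2 was lower at -1.51 (SE 0.051), GINS4 at -0.80 (SE 0.050) and GINS3 at -0.50 (SE 0.058). GINS1 (ENSG00000101003.12, chr20:25407727-25452628) held 34.5, 34.02 and 30.4 CPM in the knockout libraries, against 32.02, 35.9 and 33.8 CPM in the parental ones. Its groups overlapped, at -0.04 (SE 0.058 and edgeR adjusted p = 0.542) and a 95% interval from -0.16 to 0.08, but it was called lower with total counts only (-0.47) and with upper quartile factors (-0.24). MCM10, needed for the helicase to start, was lower at -1.20 (SE 0.050), the activating subunit DBF4 at -0.91 (SE 0.055) and its kinase CDC7 at -0.73 (SE 0.057).

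The primase subunits moved in opposite directions, the widest gap among 16 pairs of partners that were chosen with earlier results known. Primase makes the RNA primers of both strands: PRIM1 carries the active site and PRIM2 is the large subunit that helps to start the primer. PRIM1 (ENSG00000198056.16, chr12:56731596-56752373) held 12.4, 12.4 and 11.4 CPM in the knockout libraries, against 50.96, 57.97 and 55.3 CPM in the parental ones, and had the lowest log2 fold change of all 58 genes, -2.18 (SE 0.059 and edgeR adjusted p = 4.80e-19). PRIM2 (ENSG00000146143.19, chr6:57314805-57646849) held 36.8, 36.2 and 33.5 CPM in the knockout libraries, against 22.2, 24.2 and 23.3 CPM in the parental ones, at 0.61 (SE 0.054 and edgeR adjusted p = 1.07e-09). No knockout library reached a parental one for PRIM1, and none was as low as a parental one for PRIM2. The PRIM1 to PRIM2 count ratio within a library stood at log2 values of -2.81, -2.78 and -2.79 relative to the parental mean, a mean fold of 0.145. PRIM2 stayed higher under the least favourable scaling, total counts only (0.19, edgeR adjusted p = 0.00351). A partial copy of this gene, PRIM2BP, was listed at a mean of 0 CPM in knockout and 0.000836 CPM in parental libraries, so how reads were shared between the copies is uncertain.

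Of the 9 polymerase and primase genes 8 were lower. For polymerase epsilon, which copies the leading strand, the catalytic subunit POLE was lower at -1.36 (SE 0.048) and POLE2 at -0.76 (SE 0.066). For polymerase delta, which copies the lagging strand, POLD1 was lower at -0.92 (SE 0.058), POLD3 at -1.04 (SE 0.054) and POLD2 at -0.59 (SE 0.050). POLD4, the smallest subunit and not among the 58, moved the other way, at 36.5 ± 1.22 CPM in knockout and 16.2 ± 1.18 CPM in parental libraries (SD, n = 3), a rise of 1.17 (SE 0.057). Polymerase alpha extends the primers: POLA1, its catalytic subunit, was lower at -1.10 (SE 0.051) and POLA2 at -1.18 (SE 0.048). The POLA2 value depends on the gene model. A protein-coding gene without a symbol on the same strand shares 35.1% of POLA2's exon bases and held 15.5 CPM in knockout and 0.943 CPM in parental libraries, and with both rows added together, an alternative chosen after seeing the data, the log2 fold change was -0.54 (SE 0.047 and edgeR adjusted p = 7.57e-10).

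The clamp PCNA, which tethers polymerases to DNA, and 4 of the 5 clamp loader subunits were lower, while RFC1, the largest loader subunit, was called higher. PCNA was lower at -0.50 (SE 0.048), with 163 ± 6.77 CPM in knockout and 229 ± 3.83 CPM in parental libraries (SD, n = 3). RFC2 (ENSG00000049541.11, chr7:74231499-74254458) held 40.3, 39.4 and 35.8 CPM in the knockout libraries, against 115, 112 and 109.9 CPM in the parental ones, at -1.54 (SE 0.053 and edgeR adjusted p = 4.33e-17). RFC4 was lower at -1.27 (SE 0.048), RFC5 at -1.12 (SE 0.050) and RFC3 at -0.79 (SE 0.051). RFC1 (ENSG00000035928.17, chr4:39287456-39366375) held 156, 155 and 146 CPM in the knockout libraries, against 124, 134 and 130.2 CPM in the parental ones, at 0.23 (SE 0.050 and edgeR adjusted p = 0.000237). Its libraries were apart, but this rise depended on scaling: the value was 0.03 with upper quartile factors (edgeR adjusted p = 0.538) and -0.19 with total counts only (edgeR adjusted p = 0.00101). The PCNA to RFC1 ratio within a library stood at -0.74, -0.72 and -0.74 on the log2 scale relative to the parental mean. RFC1 was thus higher relative to the clamp gene in each knockout library, whatever the scaling. This holds for RFC1 alone: the other 4 loader subunits had lower log2 fold changes than PCNA and were not paired with it.

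All 3 subunits of RPA, which coats single-stranded DNA at the fork, were lower. RPA3 (ENSG00000106399.11, chr7:7636518-7718607) held 11.5, 11.9 and 10.6 CPM in the knockout libraries, against 20.2, 21.3 and 20.6 CPM in the parental ones, at -0.87 (SE 0.058 and edgeR adjusted p = 6.32e-12). RPA2 (ENSG00000117748.10, chr1:27891524-27914746) held 55.8, 55.4 and 51.5 CPM in the knockout libraries, against 81.9, 84.1 and 80.7 CPM in the parental ones, at -0.60 (SE 0.049 and edgeR adjusted p = 3.02e-10). RPA1, the large DNA-binding subunit, lay between them at -0.71 (SE 0.050). Each subunit was lower with groups apart, and the log2 fold changes spanned -0.87 to -0.60.

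The enzymes that finish Okazaki fragments had the lowest median of the 11 roles, -1.41, with 4 of 4 lower. LIG1 (ENSG00000105486.15, chr19:48115445-48170603), the ligase that seals the fragments, held 61.9, 64.3 and 63.7 CPM in the knockout libraries, against 224, 207 and 211 CPM in the parental ones. Its level in the knockout was 29.5% of the parental one, a log2 fold change of -1.76 (SE 0.050 and edgeR adjusted p = 1.17e-18). FEN1 (ENSG00000168496.4, chr11:61792637-61797244), the nuclease that trims the displaced flap, held 61.3, 61.8 and 58.1 CPM in the knockout libraries, against 96.2, 92.6 and 90.5 CPM in the parental ones, at -0.62 (SE 0.049 and edgeR adjusted p = 1.33e-10). RNASEH2A, the catalytic subunit of the ribonuclease that removes ribonucleotides, was lower at -1.50 (SE 0.050), and DNA2, a nuclease for long flaps, at -1.32 (SE 0.057).

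Nucleotide supply was the most mixed of the 11 roles, with 3 of 5 genes lower, TK1 higher and RRM1 not passing. TYMS (ENSG00000176890.16, chr18:657604-673578), thymidylate synthase, makes the thymidine nucleotide from its uracil form and held 84.8, 87.9 and 85.4 CPM in the knockout libraries, against 259, 261 and 253 CPM in the parental ones, at -1.58 (SE 0.047 and edgeR adjusted p = 3.36e-18). TK1 (ENSG00000167900.12, chr17:78174075-78187233), thymidine kinase, makes the same nucleotide by salvage and held 129.7, 132 and 125 CPM in the knockout libraries, against 116, 106 and 104 CPM in the parental ones, at 0.25 (SE 0.051 and edgeR adjusted p = 0.000171). Each gene's groups were apart, in opposite directions. The TYMS to TK1 ratio stood at log2 values of -1.86, -1.83 and -1.80 in the knockout libraries relative to the parental mean. Against all genes TK1's direction was not firm, at 0.04 with upper quartile factors (edgeR adjusted p = 0.405) and -0.18 with total counts only (edgeR adjusted p = 0.00164). TYMS shares 39.1% of its exon bases with ENOSF1 on the other strand, which held 13.6 CPM in knockout and 26.2 CPM in parental libraries.

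Ribonucleotide reductase turns ribonucleotides into deoxynucleotides and needs a large subunit, RRM1, and a small one, RRM2. RRM1 (ENSG00000167325.15, chr11:4094707-4138876) held 107, 104 and 97.5 CPM in the knockout libraries, against 96.4, 104 and 101 CPM in the parental ones. These ranges overlapped, and the log2 fold change was 0.04 (SE 0.051 and edgeR adjusted p = 0.541) with a 95% interval from -0.07 to 0.14, though it was called lower with total counts only (-0.39) and with upper quartile factors (-0.17). RRM2, whose protein is made in S phase and destroyed in mitosis, held 128 ± 6.42 CPM in knockout and 289.9 ± 8.52 CPM in parental libraries (SD, n = 3), at -1.18 (SE 0.051). The RRM2 to RRM1 ratio was 0.43 of the parental one on average, with log2 values of -1.22, -1.21 and -1.22. DUT, which removes dUTP, was lower at -0.32 (SE 0.048). Outside the 58, RRM2B, the small subunit that serves cells at rest, was higher at 0.66 (SE 0.065).

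All 4 genes that copy chromatin and DNA methylation were lower. CHAF1B (ENSG00000159259.8, chr21:36385378-36419015) and CHAF1A belong to the factor that places new histones behind the fork. CHAF1B held 32.6, 33.4 and 31.02 CPM in the knockout libraries, against 75.9, 77.6 and 75.9 CPM in the parental ones, at -1.24 (SE 0.049 and edgeR adjusted p = 5.92e-16), and CHAF1A fell less, at -0.69 (SE 0.048). UHRF1 (ENSG00000276043.5, chr19:4903080-4962154), which finds hemimethylated DNA and recruits the methyltransferase, held 175, 172 and 165 CPM in the knockout libraries, against 244, 223 and 225 CPM in the parental ones, at -0.44 (SE 0.050 and edgeR adjusted p = 6.87e-08). DNMT1, the methyltransferase that copies the pattern, held 225 ± 2.83 CPM in knockout and 451 ± 8.56 CPM in parental libraries (SD, n = 3), at -1.0 (SE 0.046). The partners thus parted by ratios of 1.47 for CHAF1A to CHAF1B and 1.48 for UHRF1 to DNMT1, knockout over parental.

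Of the fork protection genes, which hold a stalled fork together and signal to the checkpoint, 3 of 3 were lower. TIPIN (ENSG00000075131.10, chr15:66336206-66386746) held 8.09, 7.82 and 7.39 CPM in the knockout libraries, against 16.1, 18.04 and 17.2 CPM in the parental ones, at -1.14 (SE 0.062 and edgeR adjusted p = 1.95e-13). TIMELESS, its partner in the same complex, was lower at -1.11 (SE 0.047), and the TIMELESS to TIPIN ratio differed by 0.03 on the log2 scale with overlapping groups. CLSPN (ENSG00000092853.14, chr1:35720218-35769967), claspin, which passes the signal to the kinase CHK1, held 45.7, 45.04 and 43.04 CPM in the knockout libraries, against 57.5, 61.2 and 60.98 CPM in the parental ones, at -0.43 (SE 0.049 and edgeR adjusted p = 7.91e-08).

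Ratios between 16 pairs of partners were compared within libraries, since a library's scaling cancels in them. The pairs were picked for working together, with earlier results of these data known, and not all are subunits of 1 complex. In 14 pairs all 3 knockout libraries lay on 1 side of all 3 parental ones, with an exact two-sided permutation p of 0.1 for each. That is the smallest p that 3 against 3 allows, and after Benjamini-Hochberg adjustment over the 16 pairs it was 0.114, so no pair passed 0.05. How many pairs of other genes lie apart in this way was not computed, while 76.7% of tested genes did so singly. For CDC6 to CDT1 the gap was narrow, with knockout replicate 3 and parental replicate 2 both at 0.12 after rounding. The pairs with the largest shifts were PRIM1 to PRIM2 (-2.79), TYMS to TK1 (-1.83) and RRM2 to RRM1 (-1.22), against SDs between libraries of at most 0.075 in these 3. ORC1 to ORC2 had a difference of -0.65, ORC6 to ORC2 at -0.16, MCM2 to MCM5 at -0.76, POLE to POLE2 at -0.60, POLD1 to POLD2 at -0.34, DBF4 to CDC7 at -0.17 and CDC6 to CDT1 by 0.18. Groups overlapped for TIMELESS to TIPIN (exact permutation p = 0.6) and POLA1 to POLA2 (0.08, exact permutation p = 0.4), and the POLA2 row is the one that shares exons with another gene.

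**Figure D3:**
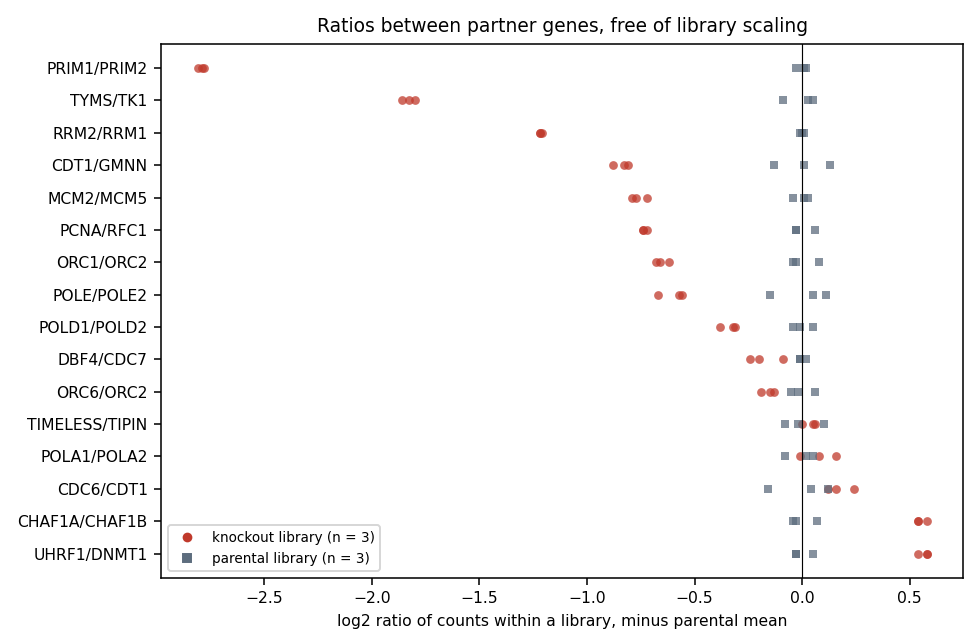
Log2 ratio of the counts of 2 partner genes within each library, minus the mean of the parental libraries, for 3 knockout (red circles) and 3 parental libraries (grey squares), ordered by the difference. PRIM1 to PRIM2 lies lowest at -2.79, and CHAF1A to CHAF1B and UHRF1 to DNMT1 lie above 0 at 0.55 and 0.57.

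**Figure D4:**
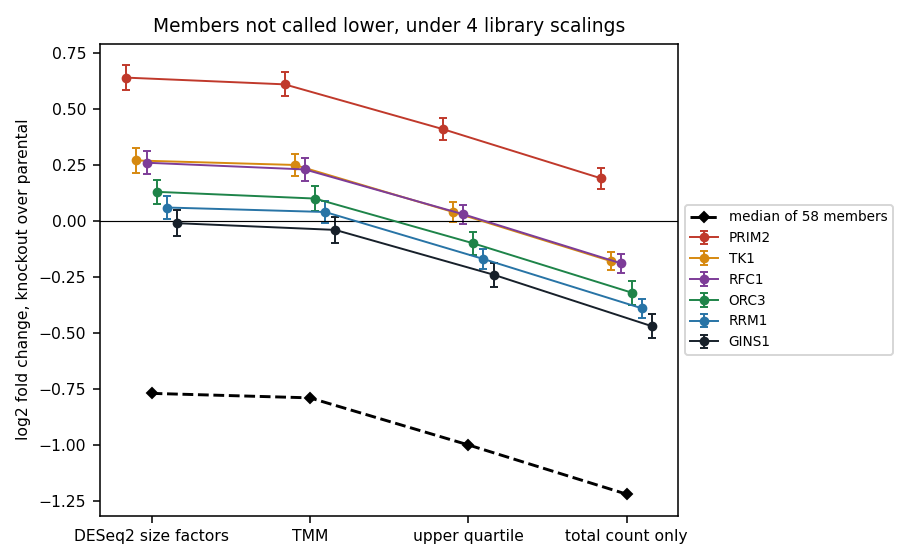
Log2 fold change, knockout over parental, with its SE, of the 6 replication genes that were not called lower, under 4 library scalings; the dashed line joins the median of all 58. PRIM2 stays above 0 under each scaling, whereas TK1 and RFC1 pass to -0.18 and -0.19 with total counts only.

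Windows with and without an E2F word were compared by their genes' log2 fold changes. The 22 genes with such a word in their window had a median log2 fold change of -0.89, and the 29 without had one of -0.73. Over all tested genes the medians were -0.18 with and 0.01 without a word. GINS1 and ORC3, which did not pass, hold an E2F word, as do MCM7 and POLE, while CDC45, PRIM1 and RRM2 hold none of the 4 words. These are descriptions of 1 list against its promoter letters, and no test was made.

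Other genes of replication were read from lists set out by function, against 37.5% lower and 36.3% higher among all tested genes. Of 26 other replisome and origin genes 19 were lower, 4 higher and 3 did not pass; their median was -0.51. ATAD5, which unloads PCNA, was lower at -2.20 (SE 0.065), with 5.20 ± 0.243 CPM in knockout and 23.8 ± 1.61 CPM in parental libraries (SD, n = 3), and TONSL, which follows new histones at the fork, at -1.25 (SE 0.060). MCM9 and POLD4 had the largest rises of that list. Of 16 other nucleotide supply genes 11 were lower and 4 higher, with a median of -0.48. DTYMK, the next kinase after TYMS and TK1 in making thymidine triphosphate, was lower at -1.44 (SE 0.051) and NME1 at -1.41 (SE 0.048), whereas SAMHD1, which breaks deoxynucleotides down, rose by 1.74 (SE 0.053) and CMPK1 by 1.70 (SE 0.052). Of 12 histone chaperone and chromatin copying genes 8 were lower and 2 higher, with a median of -0.73. SSRP1, a subunit of the histone chaperone FACT, was lower at -1.52 (SE 0.048) and CDCA7 at -1.40 (SE 0.050), and RBBP7 and ASF1A rose by 0.26 (SE 0.047) and 0.20 (SE 0.053).

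Of 33 tested G1/S regulators, which control entry into S phase, 16 were lower, 12 higher and 5 did not pass; their median was -0.08, near the -0.06 of all tested genes, of which 37.5% were lower and 36.3% higher. The G1 kinase CDK6 rose by 6.36 (SE 0.089), with 199.9 ± 23.0 CPM in knockout and 2.44 ± 0.0916 CPM in parental libraries (SD, n = 3). Its partner cyclin CCND2 rose by 6.14 (SE 0.089). E2F2, an activating E2F, was lower at -1.95 (SE 0.052) and the CDK inhibitor CDKN1C at -3.06 (SE 0.12). The other CDK inhibitors were mixed. CDKN2C was higher at 1.09 (SE 0.052), CDKN1B at 0.24 (SE 0.046) and CDKN1A at 0.11 (SE 0.047). CDKN2D was lower at -0.27 (SE 0.064), and CDKN2A and CDKN2B were not tested. The D cyclin CCND1 held 504 ± 19.9 CPM in knockout and 1757 ± 33.4 CPM in parental libraries (SD, n = 3), at -1.80 (SE 0.049). The D cyclin CCND3 was higher at 0.59 (SE 0.051), with 50.7 ± 1.10 CPM in knockout and 33.6 ± 1.72 CPM in parental libraries. CDK4, the other kinase of the D cyclins, was lower at -0.13 (SE 0.048). E2F1 held 82.3 ± 3.08 CPM in knockout and 103 ± 4.87 CPM in parental libraries, at -0.32 (SE 0.051). The E2F genes did not move as 1 group. E2F3 was higher at 0.32 (SE 0.051), E2F4 at 0.42 (SE 0.051) and E2F7 at 0.48 (SE 0.053). E2F5 was lower at -0.79 (SE 0.066), E2F6 at -0.66 (SE 0.050) and E2F8 at -0.35 (SE 0.064). Mitotic genes were mostly lower, 21 of 24 with 1 higher (KIF20A, at a log2 fold change of 0.12) and a median of -0.74, close to the -0.79 of the replication genes. HMMR, at -2.08 (SE 0.058), and CDC25C, at -1.95 (SE 0.055), had the lowest log2 fold changes. The proliferation marker MKI67 held 436, 320.1 and 325 CPM in the knockout libraries, against 455, 473 and 483 CPM in the parental ones, and did not pass at -0.38 (SE 0.14 and edgeR adjusted p = 0.0504). The 7 lists of replication, checkpoint and cell-cycle genes held 138 tested genes. Of these 33 were higher with TMM and with DESeq2 size factors, 22 with upper quartile factors and 15 with total counts only. In the same order of scalings, 88, 85, 106 and 116 were lower. Of all tested genes, 10328, 10539, 8702 and 7370 were called higher in that order, and 10687, 10439, 12780 and 14949 lower.

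**Figure D5:**
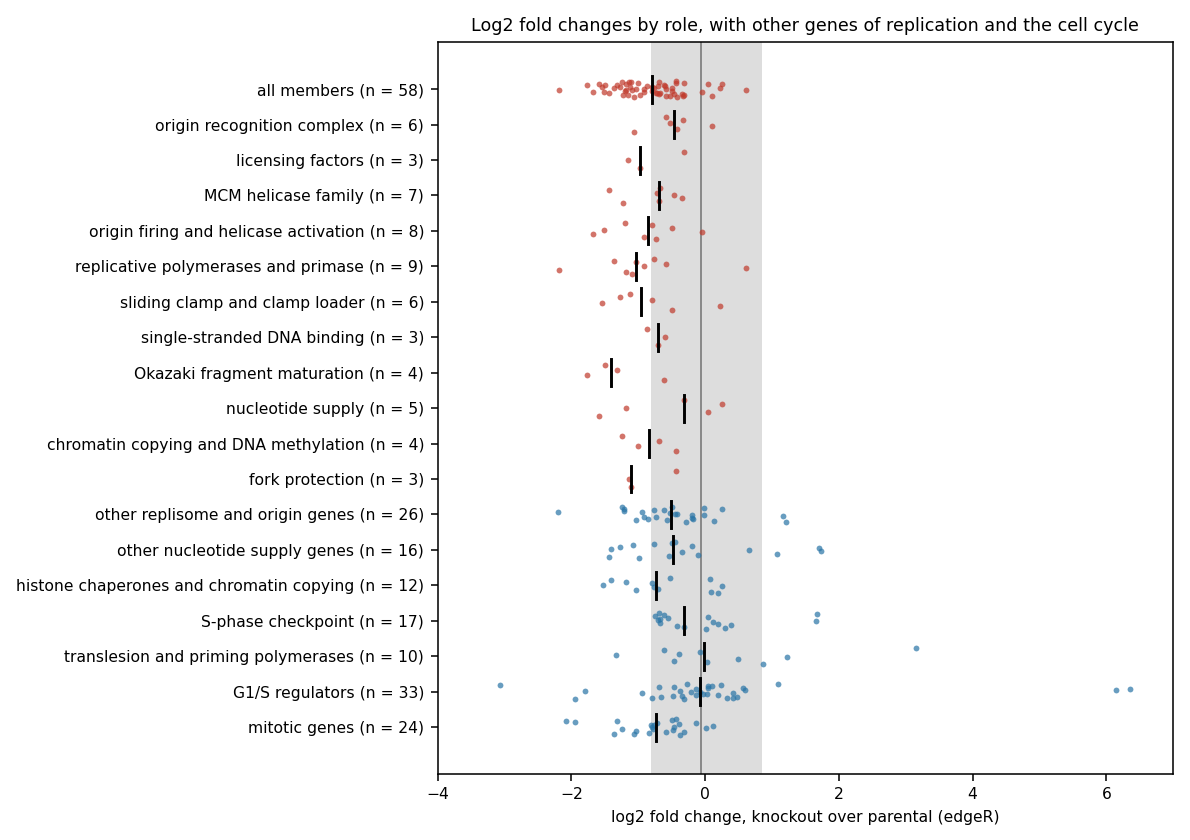
Log2 fold change, knockout over parental, of each replication gene by role (red) and of the tested genes of 7 further lists (blue), with the median of each as a black bar. The grey band and line mark the quartiles (-0.80 and 0.83) and the median (-0.06) of all 28485 tested genes; the median of the 58 genes is -0.79.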

How the data were processed

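RNA of 3 knockout and 3 parental A673 libraries was measured. The file deposited by the authors holds estimated (expected) counts per gene, not scaled between libraries. The submitters' processing notes name kallisto 0.48.0 and hg38. The annotation release, the way transcripts were summed to genes and any filter are not stated in the sources used here. As kallisto splits reads that fit several transcripts, genes with near-identical copies or shared exons are uncertain. Per the labels' protocols, RNA was poly(A)-enriched and prepared with an NEBNext Ultra II kit; strand is not stated.

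The deposited estimated counts were rounded and fitted across all genes in R 4.3.3 with edgeR 4.0.16: filterByExpr (minimum count 10, minimum total 15), TMM scaling, a robust quasi-likelihood fit with genotype alone, two-sided tests and Benjamini-Hochberg adjustment over 28485 genes at 0.05. The SE is the log2 fold change divided by the square root of F. The biological coefficient of variation was 7.53%, and 3 counts, the floor, equal 0.00752 to 0.0117 CPM, covering counting error only. No pair of replicates agreed within sampling noise (chi-square per degree of freedom 11.1 to 78.1). The steps were tested on simulated counts. The members, the lists, the motifs and the tests were chosen with earlier results of these data known. Every member is named; values of each library are given for the lowest and highest member of each role, members called higher or not passing, and members whose call moves with scaling, and from each other list the 2 largest called changes in each direction at 1 CPM or more on average, with other genes named after their values were seen. Positions come from GENCODE release 29 (GRCh38, the same build as hg38) by gene ID. Alternatives were DESeq2 1.42.0 size factors and its Wald test, total counts, upper quartile factors, 2 other filters, limma-voom (limma 3.58.1), a term for the replicate number, thinned and unrounded counts, and leaving out each library.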

Additional observations from a re-analysis of the deposited data

How the results depend on the processing

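Over 16 alternatives, 53 of the 58 replication genes kept direction and side of the threshold, and GINS1, ORC3, RFC1, RRM1 and TK1 did not. With total counts only, 1 replication gene and 15 genes of the further lists were higher, as were 7370 of all tested genes. The median of the 58 was -1.22. RFC1 (-0.19) and TK1 (-0.18) then passed from called higher to called lower. ORC3 (-0.32), RRM1 (-0.39) and GINS1 (-0.47), not called with TMM, were called lower. With upper quartile factors 1 replication gene was higher, as were 8702 of all tested genes, and the median of the 58 was -1.0. RRM1 (-0.17) and GINS1 (-0.24) were then called lower, and RFC1 and TK1 were not called. These 2 scalings also move the median of all genes (-0.42 and -0.20). With at least 1 CPM in 3 libraries required, the median was -0.83, and 6975 genes were called lower and 6650 higher, fewer being tested (15383). Leaving out each library moved the median between -0.80 and -0.75. ORC3 was called higher without knockout replicate 3 (0.15) and without parental replicate 2 (0.16), and the cause was not tested. The replicate block gave 52 lower and 3 higher replication genes and a median of -0.79, so it changed none of their calls. Deviations of same-numbered libraries had correlations of -0.255, -0.0595 and 0.0323 over 14742 genes, and those of differently numbered ones spanned -0.257 to 0.241. Such deviations, taken about means of 3 libraries, cannot decide whether the numbers are a pairing, and the labels state none. Depth did not limit these genes, whose levels are far above the floor.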

Other observations

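Genes that watch over or bypass stalled forks were read from lists of their own, against 37.5% lower and 36.3% higher among all tested genes. Of 17 S-phase checkpoint genes 9 were lower and 6 higher, with a median log2 fold change of -0.31. DTL, which directs the destruction of CDT1 on PCNA, was lower at -0.75 (SE 0.050) and the phosphatase CDC25A at -0.71 (SE 0.054). CUL4B, a scaffold of the same ubiquitin ligase, rose by 1.68 (SE 0.052), with 201 ± 6.21 CPM in knockout and 63.0 ± 3.47 CPM in parental libraries, and WEE1, the kinase that restrains CDK1, by 1.66 (SE 0.050), with 63.7 ± 0.906 CPM in knockout and 20.2 ± 0.665 CPM in parental libraries (SD, n = 3 each). CUL4A, the other scaffold, and DDB1, the adaptor of that ligase, were lower at -0.62 (SE 0.048) and -0.69 (SE 0.048). Of 10 translesion and priming polymerase genes 4 were lower and 4 higher, shares near those of all tested genes, with a median of -0.02. REV3L, the catalytic subunit of polymerase zeta, rose by 1.22 (SE 0.070), while its partner MAD2L2 was lower at -1.34 (SE 0.053). POLN rose by 3.15 (SE 0.12), with 5.69 ± 0.833 CPM in knockout and 0.641 ± 0.0753 CPM in parental libraries, and POLQ was lower at -0.61 (SE 0.056). Whether these lists differ from the replication genes was not tested.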
